A study of Bos taurus with 8 samples.

Results

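The mRNA described here encode the receptors of prostaglandins and of thromboxane, and were chosen by gene symbol. All 8 of the listed receptors, PTGFR, PTGER1, PTGER2, PTGER3, PTGER4, PTGIR, TBXA2R and PTGDR, had 1 row each among the 13861 genes of the table. The values are from RNA sequencing of whole corpora lutea (CL) of 8 Holstein heifers on day 17 after estrus. In 4 heifers, which were not bred, the CL was of the estrous cycle (cyclic replicates 1, 2, 3 and 4), and in the other 4, which were bred and found pregnant at slaughter, it was of pregnancy (pregnant replicates 1, 2, 4 and 5). Each CL was from a different heifer, and no other treatment is named. Age of the heifers is not given in the sources used here. Because whole CL were sequenced, fewer cells of a type and less RNA per cell cannot be told apart.

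Prostanoids are short-lived lipids made from arachidonic acid that act through a family of G protein-coupled receptors on the cell surface. In ruminants, pulses of uterine prostaglandin F2A (PGF2A) at the end of the estrous cycle bind the receptor encoded by PTGFR on luteal cells and start luteolysis, the regression of the CL. In early pregnancy a signal of the conceptus, interferon tau, restrains these pulses, and prostaglandin E2 (PGE2) is regarded as a luteoprotective counterpart of PGF2A. The receptors differ in the G protein they use. Those of PGF2A, of thromboxane A2 and the EP1 receptor raise calcium. The EP2, EP4 and prostacyclin receptors and the prostaglandin D2 receptor encoded by PTGDR raise cyclic AMP, and the EP3 receptor mostly lowers it.

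The libraries were of similar depth. Values are normalized counts, the reads of each gene divided by 1 factor per CL. Whole reads recovered from these values totaled 42770725 to 47076454 in CL of the estrous cycle and 43654655 to 48294165 in CL of pregnancy. The labelled tissue was borne out by its steroidogenic mRNA, since STAR, which carries cholesterol into mitochondria for progesterone synthesis, had 482094 to 981652 reads per CL. Of 6 steroidogenic mRNA, 4 had log2 fold changes above 0, and their summed level was 1448168 to 1747819 normalized counts in the cycle and 1561266 to 2277143 in pregnancy. Endothelial mRNA (6 of 6 in the table) summed to 69690 to 83992 and 64413 to 90128, and those of smooth muscle and pericytes (5 of 6) to 64948 to 79612 and 60922 to 84765. Macrophage mRNA (5 of 5) summed to 6669 to 11692 and 6692 to 14481, with no member of these 4 lists at an unadjusted p under 0.05. The 6 T and NK cell mRNA were all above 0 (4 with an unadjusted limma p under 0.05, beside 7.51% of all genes, and 0 past the adjusted threshold), at 1255 to 2268 and 2302 to 2926. All 5 mast cell and basophil mRNA were also above 0 (1 with an unadjusted p under 0.05, again beside 7.51%, and 0 past the adjusted threshold), at 6966 to 9162 and 10846 to 20081. Nearly all of this sum was KIT, at 8469 ± 1050 and 13243 ± 4515 (± SD). CPA3, TPSB1, FCER1A and HDC had at most 30 reads in any CL, so the sum describes KIT rather than the list. Of 6 platelet mRNA, 2 were in the table, at 345 to 411 and 380 to 464, and of 5 red cell mRNA, 0 were. The table holds only genes with reads in every CL, so a gene without a row may still be present in the tissue.

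No receptor mRNA differed between CL of the estrous cycle and pregnancy past the threshold, a limma p of 0.05 after Benjamini-Hochberg adjustment over the 13861 genes. PTGFR, PTGER3 and TBXA2R had log2 fold changes above 0 and the other 5 below it, with a median of -0.11, beside 0.0005 over all genes. At this threshold 0.0216% of all genes were called (3 genes), and 0 of the 8 receptors were. At an unadjusted limma p under 0.05, 7.51% of all genes were called (3.66% higher and 3.85% lower in pregnancy), and TBXA2R alone of the receptors. On recovered reads the receptors with an unadjusted p under 0.05 were PTGFR in edgeR (8.12% of all genes), TBXA2R in limma-voom (7.55%) and both in DESeq2 (9.46%). After adjustment 0 receptors passed in these tools, where 0.00721% of all genes passed in edgeR, 0.00721% in limma-voom and 0.723% in DESeq2. In 0 of the 8 receptors were the 4 CL of one group all above or all below the 4 of the other, beside 4.3% of all genes. Fold changes here are differences of log2(normalized count + 1), pregnancy minus cycle, which understates changes of mRNA with few reads. Levels are not compared between receptors, because transcript lengths in the annotation of the table were not used here.

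**Figure D1:**
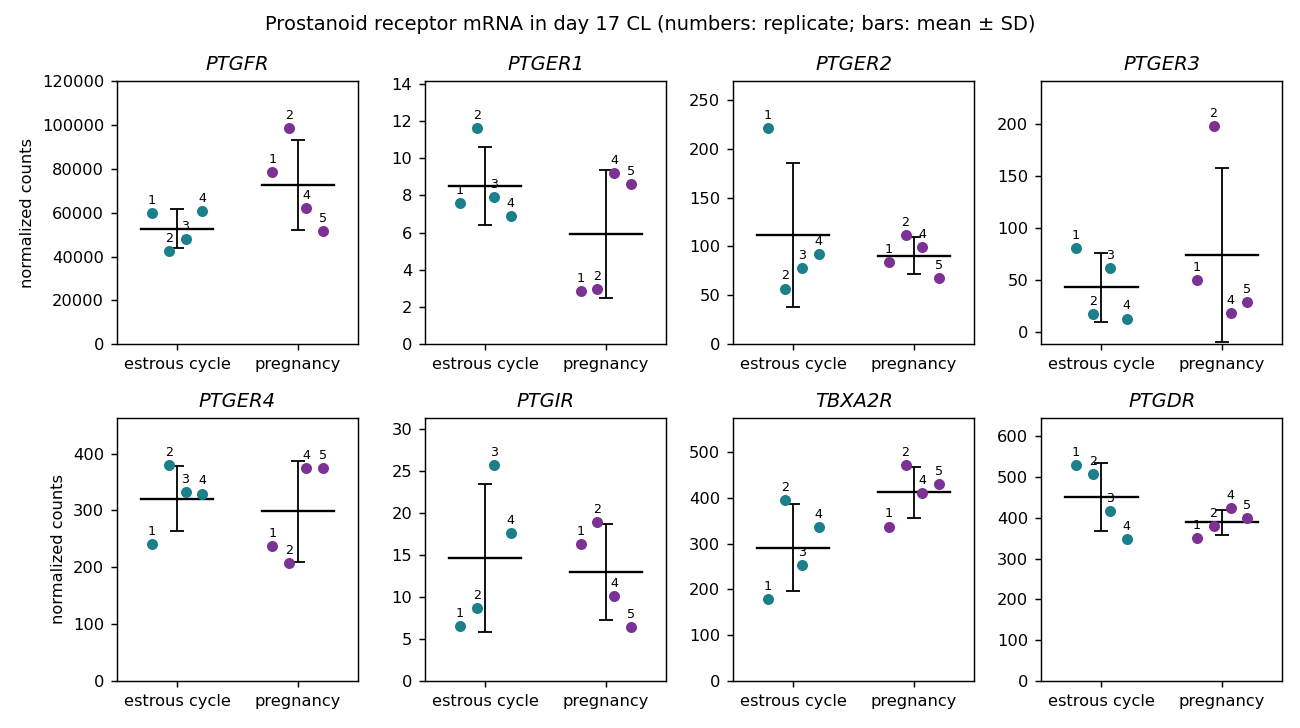
Normalized counts (vertical axis, linear) of each receptor mRNA in CL of the estrous cycle and of pregnancy. Points are single CL numbered by replicate, horizontal lines are means and bars are SD (n = 4 per group). The groups overlap for all 8 receptors, and pregnant replicate 2 stands above the other 7 CL for PTGFR, PTGER3 and TBXA2R.

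PTGFR (ENSBTAG00000015902) encodes the receptor through which PGF2A starts luteolysis. In CL of the estrous cycle it had 59983, 42386, 48269 and 60715 normalized counts in replicates 1, 2, 3 and 4. In CL of pregnancy it had 78616, 98533, 61997 and 51894 in replicates 1, 2, 4 and 5. Thus 3 of 4 CL of pregnancy were above every CL of the cycle, replicate 4 by a narrow margin, while pregnant replicate 5 lay within the cyclic range. The means were 52838 ± 9004 and 72760 ± 20411 (± SD over 4 CL each). The log2 fold change was 0.44 (SE 0.20), or 1.35-fold with a 95% interval of 0.991 to 1.85, and did not pass (limma adjusted p = 0.662). The exact two-sided permutation p over the 70 labelings of the 8 CL was 0.114, where 0.0286 is the smallest they can give. From 43883 to 99007 reads per CL stood behind these values, so counting error is small beside the spread between animals. With 1 CL left out the log2 fold change ran from 0.28 without pregnant replicate 2 to 0.58 without pregnant replicate 5 (limma unadjusted p = 0.158 and 0.0121), and the adjusted p was 0.425 to 0.839 over 17 alternative settings. The summed steroidogenic mRNA were highest in pregnant replicate 5 (2277143), followed by pregnant replicates 1 (1932018) and 2 (1871049). Most of this sum was STAR, HSD3B1 and SCARB1, and its members differed. In pregnant replicate 5, STAR (1055025) and HSD3B1 (675386) were the highest of the 8 CL, but LHCGR (12126) was the lowest. SCARB1, CYP11A1 and OXT were neither highest nor lowest there. The part of the steroidogenic mRNA in the values of PTGFR was not tested.

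TBXA2R (ENSBTAG00000014944) encodes the receptor of thromboxane A2, a prostanoid known for platelet activation and contraction of vessels. It had 178, 396, 254 and 338 normalized counts in cyclic replicates 1, 2, 3 and 4. In pregnant replicates 1, 2, 4 and 5 it had 338, 472, 411 and 430. The lowest CL of pregnancy, replicate 1, was level with cyclic replicate 4 and below cyclic replicate 2, and the other 3 were above every CL of the cycle. Mean abundance was 291 ± 95.4 in the cycle and 413 ± 56.0 in pregnancy (± SD over 4 CL each). The log2 fold change was 0.55 (SE 0.25), a 1.47-fold difference with a 95% interval of 1.003 to 2.14, and its limma unadjusted p was 0.0484, where 7.51% of all genes had one under 0.05. An exact permutation test gave 0.0571. After adjustment TBXA2R did not pass (limma adjusted p = 0.658, and 0.496 to 0.822 over 17 alternative settings). Without cyclic replicate 1, the lowest of the 8 CL, the log2 fold change was 0.34 (limma unadjusted p = 0.123, adjusted p = 0.777), and without cyclic replicate 2, the highest of its group, it was 0.72 (0.0139 and 0.563). Of the platelet mRNA, ITGA2B had 366 ± 31.1 and 419 ± 32.0 normalized counts and PF4 4.23 ± 1.93 and 10.7 ± 6.91 (± SD over 4 CL each), and PPBP, GP9, GP1BA and GP1BB were not analysed here. Their part in the difference of TBXA2R was not tested.

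**Figure D2:**
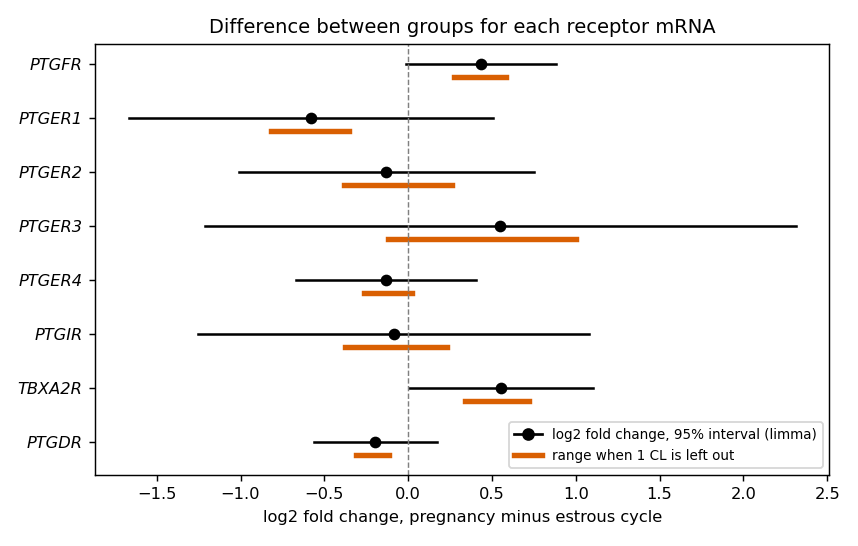
Log2 fold change of each receptor mRNA between CL of pregnancy and of the estrous cycle (horizontal axis), with its 95% interval from limma (black) and the range of the estimate when each of the 8 CL was left out in turn (orange). The interval of TBXA2R alone lies above 0 (0.005 to 1.10), and the leave-one-out ranges of PTGER2, PTGER3, PTGER4 and PTGIR cross 0.

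The 4 receptors of PGE2 showed no shared direction. PTGER2 (ENSBTAG00000002163) and PTGER4 (ENSBTAG00000014972) encode EP2 and EP4, which raise cyclic AMP. PTGER2 had 221, 57.0, 78.1 and 92.3 normalized counts in cyclic replicates 1, 2, 3 and 4. In pregnant replicates 1, 2, 4 and 5 it had 84.4, 111, 99.4 and 67.7. All 4 CL of pregnancy lay within the range of the cycle, which was set at the top by cyclic replicate 1, 3.87 times the lowest of its group. PTGER2 averaged 112 ± 73.9 in the cycle against 90.7 ± 18.9 in pregnancy (± SD over 4 CL), a log2 fold change of -0.13 with an SE of 0.39 (limma adjusted p = 0.955). The log2 fold change turned to 0.26 without cyclic replicate 1 and was 0.0017 without pregnant replicate 5, so the direction is lost when either is left out. On recovered reads it was -0.30 in both edgeR and DESeq2.

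PTGER4 had 241, 380, 332 and 330 normalized counts in cyclic replicates 1, 2, 3 and 4, and 237, 208, 375 and 374 in pregnant replicates 1, 2, 4 and 5. The CL of pregnancy formed a lower pair, both below every CL of the cycle, and a higher pair near the top of the cyclic range. The means of PTGER4 were close, at 321 ± 57.7 and 299 ± 88.7 (± SD over 4 CL each), and the log2 fold change of -0.13 had a 95% interval of -0.67 to 0.40 (limma adjusted p = 0.912). It was 0.02 without pregnant replicate 2. The 3 CL lowest for PTGER4 (pregnant replicates 2 and 1 and cyclic replicate 1) were also the 3 lowest for the summed macrophage mRNA, at 6692, 9293 and 6669 normalized counts against 9826 to 14481 in the other 5 CL. Pregnant replicate 2 and cyclic replicate 1 were the lowest pair for each of the 5 macrophage mRNA, whereas pregnant replicate 1 came next for CD14 and CSF1R but not for CD68, CD163 or AIF1. This was noticed after the values were seen, and its part in the values of PTGER4 was not tested.

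PTGER3 (ENSBTAG00000019230) encodes EP3, for which RefSeq (assembly ARS-UCD2.0) lists 8 transcripts that the table does not separate. In the cycle it had 80.4, 17.4, 61.3 and 12.8 normalized counts in replicates 1, 2, 3 and 4. In pregnancy it had 49.9, 198, 18.4 and 29.0 in replicates 1, 2, 4 and 5. Pregnant replicate 2 was thus far above the other 7 CL, and the other 3 CL of pregnancy lay within the range of the cycle. Means were 43.0 ± 33.2 and 73.8 ± 83.8 (± SD over 4 CL each), and the log2 fold change of 0.55 had an SE of 0.79 (limma adjusted p = 0.887). It was -0.12 without pregnant replicate 2 and 0.998 without pregnant replicate 4. PTGER3 varied most among the receptors, 15.5-fold from the lowest to the highest CL, on 13 to 199 reads per CL.

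PTGER1 (ENSBTAG00000017041), which encodes the calcium-raising EP1, had few reads. It had 7.61, 11.6, 7.91 and 6.87 normalized counts in cyclic replicates 1, 2, 3 and 4, and 2.88, 2.99, 9.20 and 8.60 in pregnant replicates 1, 2, 4 and 5. The lower pair in pregnancy, replicates 1 and 2, stood at 3 reads each and below every CL of the cycle, and the other 2 lay within its range. All CL of the cycle together held 34 reads (exact 95% Poisson interval 23.5 to 47.5) and all CL of pregnancy 24 (15.4 to 35.7), and these intervals overlap. For PTGER1 it was -0.58 on the log2 scale, with an SE of 0.49 and a limma adjusted p of 0.793, and it was -0.35 without pregnant replicate 1 and -0.37 without pregnant replicate 2. Such intervals cover counting error only.

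The prostaglandin D2 receptor encoded by PTGDR and the receptor of prostacyclin, both of which raise cyclic AMP, also overlapped between groups. PTGDR (ENSBTAG00000006703) had 529, 507, 417 and 349 normalized counts in cyclic replicates 1, 2, 3 and 4, and 351, 380, 424 and 400 in pregnant replicates 1, 2, 4 and 5. Every CL of pregnancy lay within the cyclic range, and all 4 were below the median of the cycle. PTGDR averaged 451 ± 83.2 and 389 ± 30.9 (± SD over 4 CL each). Its log2 fold change of -0.20 (SE 0.16) had the narrowest interval of the 8 receptors, 0.677 to 1.13 as a fold (limma adjusted p = 0.793), and stayed below 0 in each of the leave-one-out fits (-0.31 without cyclic replicate 4 to -0.11 without cyclic replicate 1).

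PTGIR (ENSBTAG00000014585), the receptor of prostacyclin, a dilator of vessels, had 6.52, 8.69, 25.7 and 17.7 normalized counts in cyclic replicates 1, 2, 3 and 4. In pregnant replicates 1, 2, 4 and 5 it had 16.3, 18.9, 10.1 and 6.45. The highest CL was cyclic replicate 3 and the lowest pregnant replicate 5, and 3 of 4 CL of pregnancy lay within the range of the cycle. The sums were 59 reads in the cycle (exact 95% Poisson interval 44.9 to 76.1) and 53 in pregnancy (39.7 to 69.3). The groups differed by -0.09 on the log2 scale (SE 0.52) with a limma adjusted p of 0.981, and the sign turned without cyclic replicate 3 (0.23) or 4 (0.06) or pregnant replicate 5 (0.18), and in the fit with the replicate block (0.50).

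The CL with the highest and the lowest abundance differed among the receptors. Pregnant replicate 2 was the highest CL for PTGFR, PTGER3 and TBXA2R and the lowest for PTGER4. Cyclic replicate 1 was the highest for PTGER2 and PTGDR and the lowest for TBXA2R. Cyclic replicate 2 was the highest for PTGER1 and PTGER4 and the lowest for PTGFR and PTGER2. Pregnant replicates 1 and 2, the highest pair for PTGFR, were the lowest pair for both PTGER4 and PTGER1, which was noticed after the values were seen. The spread among CL of the same group, as the residual SD of log2 values, ran from 0.21 for PTGDR to 1.37 for PTGER3, and in 7 of the 8 receptors it was above the median of all genes (0.26). That median was not matched for abundance, and PTGER1, PTGIR and PTGER3 had few reads (3 to 12, 6 to 26 and 13 to 199 per CL). The residual SD was 0.34 for PTGFR, 0.37 for PTGER4 and 0.38 for TBXA2R.

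**Figure D3:**
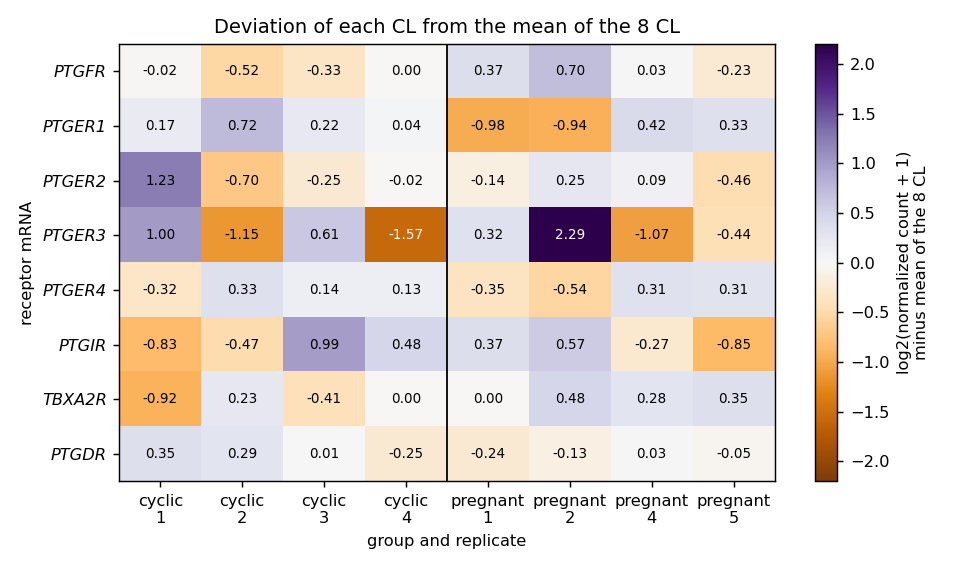
Deviation of each CL (columns, by group and replicate) from the mean of the 8 CL for each receptor mRNA (rows), in log2(normalized count + 1), with purple above and orange below the mean. PTGER3 has the widest range, from -1.57 in cyclic replicate 4 to 2.29 in pregnant replicate 2, and PTGDR the narrowest.

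Genes with the most similar pattern to PTGFR over the 8 CL were sought among 10315 genes with a mean of at least 100 normalized counts. They were MIA3, LARS2, PPIP5K1, LOC506828 and EVC, with Pearson r of 0.952 to 0.961. MIA3, which acts in export of collagen from the endoplasmic reticulum, had 25422 normalized counts in cyclic replicate 2 and 32275 in pregnant replicate 2, the lowest and the highest CL for PTGFR as well. For TBXA2R the most similar were MBOAT7, ALKBH2, TUBG2, LRSAM1 and BIN1 (r of 0.943 to 0.956). MBOAT7, which attaches arachidonic acid to a membrane phospholipid, had 3340 in cyclic replicate 1, with 4069 to 4902 among the other 7. These coefficients describe 8 CL of 2 groups and are the top of a long list.

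Among mRNA of the relays that prostanoid receptors use, 0 passed the adjusted limma threshold. The Gq and phospholipase C relay serves the receptors of PGF2A and thromboxane. Of 19 mRNA of this relay, its inhibitor RGS2 included, 13 lay above 0 on the log2 fold scale and 6 below it (median 0.12). PRKCE, a protein kinase C, averaged 1058 ± 125 in cyclic CL and 1245 ± 126 in pregnant CL (± SD over 4 CL, limma adjusted p = 0.684). ITPR1, a channel that releases calcium, had a log2 fold change of 0.18 and PRKCA, another protein kinase C, one of -0.31, with limma adjusted p of 0.745 and 0.759. Of 16 mRNA of the Gs and cyclic AMP relay, 10 were above 0 and 6 below (median 0.02). Among these, ADCY8, an adenylyl cyclase, had 28.3, 130, 27.7 and 10.8 in cyclic replicates 1, 2, 3 and 4 and 61.4, 97.5, 93.8 and 92.4 in pregnant replicates 1, 2, 4 and 5 (limma adjusted p = 0.660). PRKAR2B, a regulatory subunit of protein kinase A, had 2489 to 3397 in pregnancy against 3527 to 3939 in the cycle (limma adjusted p = 0.668). It was the 1 of these 16 whose groups did not overlap, beside 4.3% of all genes. The adenylyl cyclase ADCY5 had 204 ± 120 and 112 ± 13.3, and GNAS, which encodes the Gs subunit itself, 79664 ± 2743 and 82541 ± 5069 (± SD over 4 CL, limma adjusted p = 0.711 and 0.913).

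Of 12 mRNA of the Gi relay and of regulators that limit it, 6 were above 0 and 6 below (median -0.01). Members with the smallest p were RGS16, RGS1 and RGS4, regulators that shorten G protein signals, at -0.35, -1.04 and -0.97 (limma adjusted p = 0.668, 0.685 and 0.714). RGS5, another of these, had 30085 ± 4580 and 30738 ± 4954 normalized counts (± SD over 4 CL each). Of 8 mRNA of the G12 and G13 relay, 4 were above 0 and 4 below (median 0.01), and ARHGEF11, an activator of the GTPase RHOA, had 698 ± 353 and 988 ± 125 (± SD over 4 CL, limma adjusted p = 0.680). The kinase ROCK2 had a log2 fold change of -0.17, the subunit GNA12 (written Gna12 in the table) one of 0.08 and RHOA one of -0.04. In these 4 lists 0 members had a limma unadjusted p under 0.05, beside 7.51% of all genes.

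All 7 mRNA of receptor kinases and arrestins, which uncouple activated receptors from G proteins, had log2 fold changes above 0 (median 0.16), beside 6945 of 13861 over all genes. GRK5, a receptor kinase, had 2499, 2355, 2281 and 2750 normalized counts in cyclic replicates 1, 2, 3 and 4, and 2797, 3120, 3015 and 3161 in pregnant replicates 1, 2, 4 and 5. Its 4 values in pregnancy were all above its 4 values in the cycle, a lack of overlap that 4.3% of all genes had in either direction. It was the 1 member of the list with a limma unadjusted p under 0.05 (0.00832, with a log2 fold change of 0.29 and an SE of 0.09), beside 7.51% of all genes, but did not pass after adjustment (0.544). ADRBK1, also a receptor kinase, had 3328 ± 418 and 3662 ± 171, and GRK6, on 4 to 26 reads per CL, 13.6 ± 6.47 and 18.5 ± 6.46 (± SD over 4 CL, limma adjusted p = 0.754 and 0.817).

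**Figure D4:**
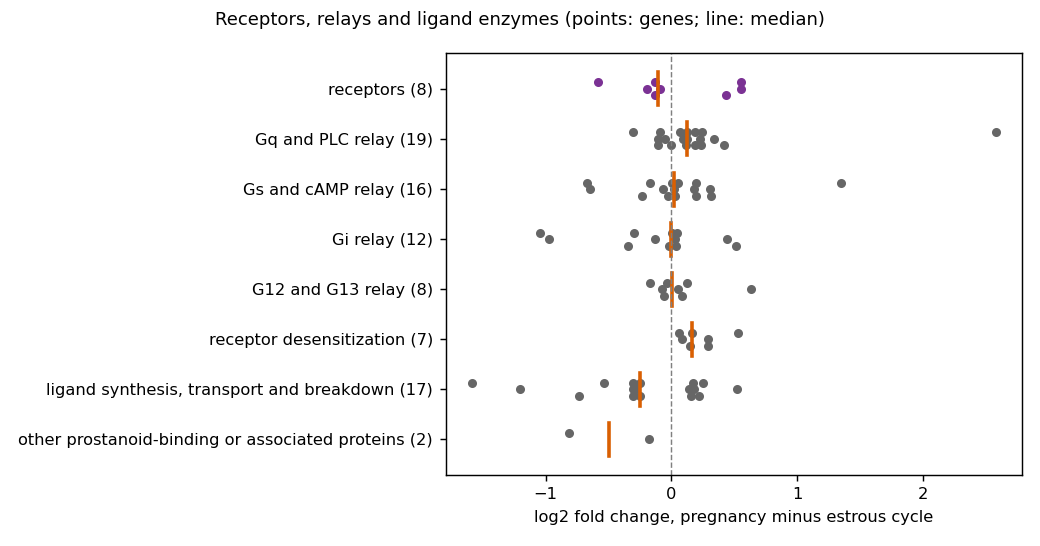
Log2 fold change between CL of pregnancy and of the estrous cycle (horizontal axis) for the 8 receptors and for the genes of each relay or enzyme list (rows, number of genes in parentheses). Points are genes and orange lines are medians, which run from -0.50 to 0.16. The point at 2.58 is RGS2, whose values within each group differed more than the groups did.

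RGS2, an inhibitor of Gq that was singled out after its values were seen, ranged widely within each group. It had 1.09, 775, 7.91 and 1090 normalized counts in cyclic replicates 1, 2, 3 and 4, and 3477, 396, 11.04 and 1218 in pregnant replicates 1, 2, 4 and 5. RGS2 thus had from 1 to 3625 reads per CL, with low CL in both groups, and its difference of 2.58 on the log2 scale had an SE of 2.25 (limma adjusted p = 0.801).

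Of 17 mRNA that make, carry or break down the ligands, 7 were above 0 and 10 below (median -0.25). At a limma unadjusted p under 0.05 there were 1 higher (CBR1) and 2 lower (PTGES3 and HPGD) of the 17, beside 3.66% and 3.85% of all genes, and 0 passed after adjustment. PTGES3, a co-chaperone that can also make PGE2, averaged 11234 ± 1134 in cyclic CL and 9448 ± 823 in pregnant CL (± SD over 4 CL, limma adjusted p = 0.625). HPGD, which inactivates prostaglandins, had 87.0, 416, 81.0 and 167 in cyclic replicates 1, 2, 3 and 4 and 87.3, 36.8, 84.6 and 61.3 in pregnant replicates 1, 2, 4 and 5 (limma adjusted p = 0.639). The reductase CBR1 had a log2 fold change of 0.52 and the prostaglandin carrier SLCO2A1 one of 0.18 (limma adjusted p = 0.550 and 0.801). In 3 of the 17 the groups did not overlap, beside 4.3% of all genes. These were CBR1, PLA2G4A and AKR1B1, and the last 2 are named because of that count. PLA2G4A, which releases arachidonic acid from membranes, had 45.5 to 54.4 in the cycle and 55.2 to 69.1 in pregnancy. AKR1B1, which can make PGF2A, had 3000 to 4126 and 2596 to 2927. Of the nuclear receptors that bind some prostanoids, PPARG had 149 ± 112 and 71.0 ± 13.8 and PPARD 6563 ± 1233 and 5734 ± 487 normalized counts (± SD over 4 CL, limma adjusted p = 0.700 and 0.755). The other receptor of prostaglandin D2, PTGDR2, and the PGF2A receptor-associated protein PTGFRN were not analysed here.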

How the data were processed

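Strand-specific libraries of total RNA from 8 CL were sequenced. The signal table deposited by the authors gives normalized counts (reads of a gene over 1 factor per CL) and the authors' group means, which were left out. For aligner, counter, genome build and annotation, the sources used here give nothing. Dividing by the smallest value of each CL gave whole reads, within 0.01, for 99.9 to 100% of genes. This smallest value was 0.920 to 1.09 and was taken as 1 read, so every gene of the table had reads in every CL. Shares of all genes are therefore shares of such genes. In pregnant replicate 2, 1 read was worth 0.995, so near 1 that an automated test of the units did not accept read recovery for this CL. Its recovered reads were nevertheless kept in the count-based tests and read counts, which are therefore less certain. Even numbers made up 71.4 to 77.2% of low read counts (2 to 9), where an equal split with odd numbers would be 50%. The share to be had by chance was not computed. Counting intervals may be too narrow.

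With limma 3.58.1 (trend, R 4.3.3), log2(value + 1) was compared over the 8 CL, no covariate, for genes whose mean was 1 or more (all 13861, and all 8 receptors). The code was tested on simulated data, with 50 genes changed by each of 4 folds. At the adjusted threshold limma recovered 10 of those changed 1.5-fold, 23 at 2-fold, 41 at 4-fold and 46 at 8-fold. Differences of the size seen in the receptors could thus be missed. As the values are normalized, edgeR 4.0.16, DESeq2 1.42.0 and limma-voom on recovered reads served as alternatives only, as did other pseudocounts, filters, quantile normalization, leaving out each CL and a replicate block. Libraries differed from each other beyond counting noise (chi-square per degree of freedom at least 63.4), and none was a copy.

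Besides the receptors, the rule for naming took from each list up to 3 genes with the smallest p and 1 with the highest mean. Members and lists were chosen with earlier results of these data known. All 8 symbols are in RefSeq. GRK2 and GRK3 stand in the table as ADRBK1 and ADRBK2. Python 3.11.15 with scipy 1.17.1, numpy 2.4.6 and pandas 2.3.3 did the remaining work, and matplotlib 3.10.9 the plots.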

Additional observations from a re-analysis of the deposited data

How the results depend on the processing

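For the 8 receptors, 17 alternatives each gave 136 values, of which 128 kept the sign and 0 passed the adjusted threshold. The fit with no filter was the same as the main fit, since all 13861 genes passed the filter. A minimum mean of 5 left every log2 fold change of the receptors as it was, so neither setting could turn a sign. PTGFR (0.28 to 0.58), TBXA2R (0.34 to 0.72), PTGDR (-0.31 to -0.11) and PTGER1 (-0.82 to -0.35) kept their direction in all 17. When 1 CL was left out, the log2 fold change ran from -0.38 to 0.26 for PTGER2 and from -0.38 to 0.23 for PTGIR. It ran from -0.26 to 0.023 for PTGER4 and from -0.12 to 0.998 for PTGER3. The sign turned in 2 of the 8 such fits for PTGER2, 3 for PTGIR, 1 for PTGER4 and 1 for PTGER3. Replicate numbers 1, 2 and 4 occur in both groups, and the labels name no pairing. Deviations of CL with the same number correlated at 0.02, -0.05 and 0.01, and those of CL with different numbers at -0.10 to 0.18. These values cannot decide whether animals were paired. With the replicate block PTGIR was at 0.50, PTGER3 at 1.08 and PTGER4 at -0.23, and 0 genes passed, against 3 without it. On recovered reads PTGER2 was at -0.30 and PTGIR at -0.18 in both edgeR and DESeq2. The count of genes past the threshold was 1 to 4 when 1 CL was left out, 1 in edgeR, 1 in limma-voom and 94 in DESeq2, of which 0 were receptors. DESeq2 gave no adjusted p for PTGER1. The cause of these differences was not tested. For PTGER1 and PTGIR, at 3 to 12 and 6 to 26 reads per CL, few reads limit the precision.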
